A study of Mus musculus with 4 samples.

Results

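The 38 genes described here mark macrophages or carry out their work in complement, Fc receptor signalling, scavenging, the lysosome and antigen presentation on MHC class II. They are a list of named genes, drawn up with earlier results of these data known, and each was read from its brightest probe set that the array annotation assigns to a single gene. Of the 38 genes, 37 had such a probe set among the 17097 genes measured. Axl had none and was not analysed here. Of the 37, 34 reached the brightness limit for testing, a mean log2 value of 4.94, which is the median over all probe sets. Ciita, Timd4 and Marco lay below it and are given as values only.

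The samples were intact inguinal mammary glands of mice at postnatal day 10. There were 2 glands of wild-type mice, Mt1-mmp(+/+), and 2 of global knockout littermates, Mt1-mmp(-/-), all outbred Swiss Black, with 1 Affymetrix array each. Mt1-mmp, listed as Mmp14, encodes a collagenase anchored in the cell membrane, and the knockout is not limited to a cell type. The samples are labelled biological replicates, and p-values measure the spread between them. The glands were not separated into cell types, so fat, stroma, vessels, epithelium and immune cells all gave RNA, and fewer macrophages cannot be told apart from less RNA per macrophage.

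Macrophages of the mammary gland sit around the ducts and in the fat pad and depend on the growth factor Csf1 and its receptor Csf1r. They clear dying cells and matrix fragments through scavenger receptors and lysosomes. They also present peptides on MHC class II molecules, which are built from an alpha and a beta chain, are held in transit by the invariant chain Cd74 and are loaded with the help of H2-DM. Dendritic cells and B cells make MHC class II as well. Transcription of these genes is switched on by Ciita, a coactivator that acts at a pair of conserved promoter elements called the X box and the Y box, whereas many myeloid genes are bound by the transcription factor PU.1, the product of Spi1.

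The promoters below show where short cores of these elements lie in some members whose genotypes did not overlap, and only windows that hold a core are printed. They are RefSeq sequences of the build GRCm38.p6, from 250 bases before to 50 bases after the start, written in the direction of the gene. The animals were outbred and may differ from them. Capitals mark exact matches on either strand to AGCAAC (X box core), GATTGG (Y box core) or GAGGAAG (PU.1 core), and a match on the other strand appears as its reverse complement.
H2-Aa (chr17:34287774-34288073, minus strand): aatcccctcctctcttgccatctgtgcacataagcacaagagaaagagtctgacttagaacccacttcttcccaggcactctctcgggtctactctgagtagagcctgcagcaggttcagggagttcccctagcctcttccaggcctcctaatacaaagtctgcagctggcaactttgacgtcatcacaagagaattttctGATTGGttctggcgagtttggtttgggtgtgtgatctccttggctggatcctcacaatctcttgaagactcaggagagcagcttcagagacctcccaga
H2-Eb1 (chr17:34305617-34305916, plus strand): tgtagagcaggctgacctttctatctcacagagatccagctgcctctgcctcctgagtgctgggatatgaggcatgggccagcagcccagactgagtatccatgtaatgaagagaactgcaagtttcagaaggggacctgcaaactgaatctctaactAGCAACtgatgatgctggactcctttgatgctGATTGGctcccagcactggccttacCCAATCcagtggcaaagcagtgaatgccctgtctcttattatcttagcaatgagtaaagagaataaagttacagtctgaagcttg
Cd68 (chr11:69666121-69666420, minus strand): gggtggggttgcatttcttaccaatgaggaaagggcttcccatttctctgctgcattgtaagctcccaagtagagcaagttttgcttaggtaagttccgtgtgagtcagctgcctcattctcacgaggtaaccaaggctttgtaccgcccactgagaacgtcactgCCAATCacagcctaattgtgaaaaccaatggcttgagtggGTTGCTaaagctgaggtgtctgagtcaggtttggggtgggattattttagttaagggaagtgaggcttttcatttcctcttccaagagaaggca
Fcgr1 (chr3:96293920-96294219, minus strand): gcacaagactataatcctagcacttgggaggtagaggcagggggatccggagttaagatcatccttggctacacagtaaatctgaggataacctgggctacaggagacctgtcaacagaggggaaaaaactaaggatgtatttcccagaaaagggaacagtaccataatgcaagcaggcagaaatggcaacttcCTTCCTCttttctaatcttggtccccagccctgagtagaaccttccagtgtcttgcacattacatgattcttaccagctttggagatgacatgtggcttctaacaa
Fcgr3 (chr1:171059345-171059644, minus strand): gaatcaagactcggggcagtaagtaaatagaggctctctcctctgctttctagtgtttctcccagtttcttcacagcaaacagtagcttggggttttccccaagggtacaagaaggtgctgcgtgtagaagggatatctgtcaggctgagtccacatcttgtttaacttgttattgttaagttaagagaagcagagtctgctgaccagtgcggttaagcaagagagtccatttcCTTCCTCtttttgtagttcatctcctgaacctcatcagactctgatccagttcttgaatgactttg
Mrc1 (chr2:14229164-14229463, plus strand): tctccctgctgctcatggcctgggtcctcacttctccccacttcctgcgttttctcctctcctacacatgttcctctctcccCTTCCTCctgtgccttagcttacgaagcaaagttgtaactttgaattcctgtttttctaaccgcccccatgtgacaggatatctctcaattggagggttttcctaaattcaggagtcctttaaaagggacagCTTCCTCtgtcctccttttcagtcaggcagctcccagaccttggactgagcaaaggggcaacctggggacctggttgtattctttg

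RefSeq windows were listed for 26 of the 38 genes, as 30 windows. An X box core followed on the same strand by a Y box core within 40 bases was found in 2 of these windows, those of H2-Eb1 and Cd68, the latter on the opposite strand, and in 0.231% of all 32851 promoter windows. In H2-Eb1 the 2 cores were 26 bases apart on the printed strand and spanned the stretch from 92 to 55 bases before the start, and a further Y box core lay on the other strand. H2-Aa held the Y box core but not these letters of the X box core. The X box core was in 14.8% of all windows and the Y box core in 16.1%. The PU.1 core was in 10 of the 30 member windows (33.3%), from 9 genes, and in 13.6% of all windows. Fcgr1, Fcgr3 and Mrc1 were among the 9 genes, and Fcgr3 gave overlapping windows that hold the same match. Axl, which had no probe set, and Marco, below the brightness limit, were among them too. The windows of Aif1, Folr2, C1qb, Fcer1g and Lyz2, whose genotypes did not overlap either, held none of these cores. The PU.1 core also lay in windows of C1qc, Laptm5 and Trem2, whose genotypes overlapped. These matches describe letters and are not evidence of binding.

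Arrays of the same genotype differed for these genes. In wild-type replicate 2, 31 of the 34 tested members were higher than in wild-type replicate 1, by a median of 0.28 (log2) over all 34, against 5504 of all 11078 genes tested. Over all genes the median absolute gap was 0.21 within the knockout pair and 0.08 within the wild-type pair. Skeletal muscle markers were high in knockout replicate 2. The summed level of 12 muscle markers, as log2 of the summed linear values, was 15.49 there, against 8.41 and 11.54 in wild type and 8.38 in knockout replicate 1. Markers of epidermis and hair follicle were highest in knockout replicate 1, with a summed level of 13.61 over 12 genes, against 10.12 and 11.68 in wild type and 9.61 in knockout replicate 2. Mmp14 itself measured 8.92 and 8.73 in the wild-type pair, beside 5.83 and 5.68 in the knockout pair. The part of these differences in the values below was not tested, except where an array is left out.

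Macrophage and MHC class II genes were mostly lower in the knockout gland, but no member passed the test. The MHC class II chains and Cd74 were lower by 1.66 to 2.58-fold, a range that also holds Aif1, Fcgr1 and Cd68. Of 34 tested members 28 had a lower mean in the knockout, where 53.5% of all genes did, and 6 a higher one, where 46.5% did. For 19 members both knockout arrays lay below both wild-type arrays, where 32.5% of all genes did so, and for 3 both lay above, where the share was 26.3%. With limma and Benjamini-Hochberg adjustment over 11078 genes, 0 members were called in either direction, as were 0% of all genes, and the smallest adjusted p among members was 0.105, for Aif1. At an unadjusted limma p under 0.05 there were 10 members lower (background 12.1%) and 1 higher (background 9.69%). The median difference over the members was -0.35, beside -0.02 over all genes tested, and against the wild-type mean it was -0.47 and -0.23 in knockout replicates 1 and 2. Without wild-type replicate 2 the members' median was -0.20, and without wild-type replicate 1 it was -0.49.

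**Figure D1:**
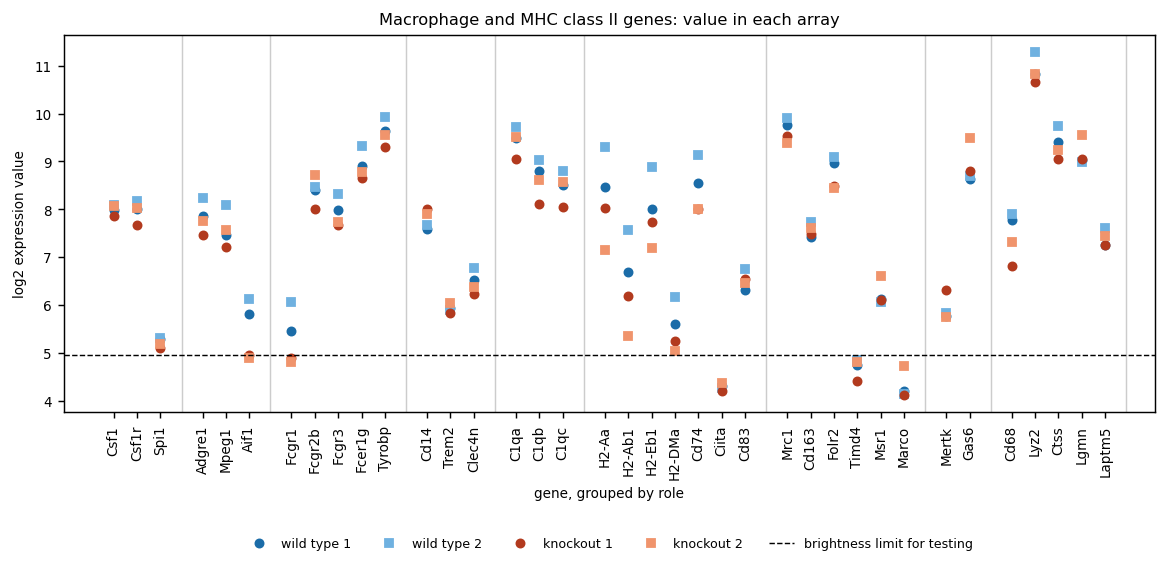
Log2 expression value (vertical axis) of each of the 37 measured genes in the 4 arrays, grouped by role, with circles for replicate 1 and squares for replicate 2. The dashed line is the brightness limit of 4.94, and wild-type replicate 2 is the highest array for most members, with the widest spread over arrays in H2-Aa, H2-Ab1 and H2-Eb1.

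Of the groups of members, MHC class II had the lowest median difference, at -0.92 (log2), although Aif1 and Fcgr1 outside it were lower than some of its genes. All 6 tested members had a lower mean (53.5% of all genes), and in 5 both knockout arrays lay below both wild-type arrays (32.5% of all genes). H2-Ab1, the beta chain of the I-A molecule, measured 6.70 and 7.56 in the wild-type pair, beside 6.18 and 5.35 in the knockout pair. Both knockout arrays were lower than both wild-type arrays, and knockout replicate 2 was the lowest of the 4. The difference was -1.36 ± 0.44 (SE, n = 2 per group), or 2.58-fold, with a 95% interval from -2.58 to -0.15 and a limma adjusted p of 0.205. H2-Aa, its alpha chain partner, measured 8.47 and 9.30 in the wild-type pair, beside 8.02 and 7.14 in the knockout pair, in the same order. Its difference was -1.30 ± 0.44, or 2.47-fold, with an adjusted p of 0.217. H2-Eb1, the beta chain of the I-E molecule, had 8.003 and 8.89 against 7.74 and 7.18, a difference of -0.99 ± 0.39 with an adjusted p of 0.255. In all 3 chains the wild-type arrays themselves lay 0.83 to 0.89 apart, beside differences of -0.99 to -1.36 between the genotypes.

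The chaperones of this pathway were lower with less spread. Cd74, the invariant chain, measured 8.56 and 9.14 in the wild-type pair, beside 7.995 and 8.002 in the knockout pair. The knockout arrays were nearly equal and lay below both wild-type arrays, a difference of -0.85 ± 0.22 (SE, n = 2 per group), or 1.80-fold, with a limma adjusted p of 0.173. H2-DMa, which helps to load peptides, had 5.60 and 6.16 against 5.25 and 5.05, a difference of -0.73 ± 0.23 with an adjusted p of 0.201, and its knockout values lay close to the brightness limit. Cd83, a surface protein of activated antigen-presenting cells that keeps MHC class II at the membrane, had 6.31 and 6.74 against 6.55 and 6.47. Its genotypes overlapped, with a difference of -0.02 and an interval from -0.52 to 0.49. Ciita, below the limit, had 4.31 and 4.26 against 4.20 and 4.37.

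Other probe sets of the class II genes that reached the limit gave smaller differences in the same direction. A dimmer set of H2-Aa differed by -0.71, and the other 2 of H2-Ab1 by -0.95 and -0.83. In the dimmest of the latter the genotypes overlapped, with 6.02 and 7.02 in the wild-type pair, beside 6.08 and 5.30 in the knockout pair. The brightest sets of H2-Aa, H2-Ab1 and Cd74 carry suffixes that mark probes shared between transcripts. H2-Ab1, H2-Aa and H2-Eb1 lie next to each other with 0 protein-coding genes between them in the RefSeq gene table, and are highly polymorphic between mice. The animals' MHC haplotypes are not given in the sources used here, and their part in the chain values was not tested. H2-DMa lies on the same chromosome with 7 protein-coding genes between it and H2-Ab1, and Aif1 with 55 between it and H2-Eb1. Cd74 lies on another chromosome. In H2-DMa, Aif1 and Cd74 both knockout arrays lay below both wild-type arrays. The part of haplotypes in this order was not tested either.

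Other genes of the class II pathway went both ways. Of 16 listed, 12 were tested, 7 with a lower and 5 with a higher mean and a median of -0.09, and 0 passed the adjusted limma test, with 2 lower and 1 higher at an unadjusted p under 0.05 (12.1% and 9.69% of all genes). H2-DMb1 measured 5.37 and 5.66 in the wild-type pair, beside 5.05 and 4.83 in the knockout pair, and H2-DMb2 had 6.70 and 6.95 against 6.44 and 6.06. These are the beta chains that pair with H2-DMa, and both differed by -0.58, with limma adjusted p-values of 0.177 and 0.206. The X box factor Rfx5 had 7.09 and 7.35 against 7.56 and 7.36, a difference of 0.24 ± 0.15, with knockout replicate 2 barely above wild-type replicate 2. The ubiquitin ligase gene Marchf8, whose product removes surface proteins from the membrane, differed by 0.30 ± 0.10. Both were higher in the 2 knockout arrays than in the 2 wild-type arrays, as were 26.3% of all genes. Of the interferon gamma route to Ciita, 5 of 7 listed genes were tested, all with a lower mean and a median of -0.27, among them the receptor chain Ifngr2 (-0.30 ± 0.09) and the kinase Jak2 (-0.33 ± 0.10), and 0 passed, with 2 lower at an unadjusted limma p under 0.05 (12.1% of all genes). Among MHC class I genes 9 of 13 were tested and all 9 had a lower mean, with a median of -0.39 and 0 passing the limma test even before adjustment, including H2-K1 at -0.47 and H2-D1 at -0.30. In that list wild-type replicate 2 lay above wild-type replicate 1 by a median of 0.30.

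Fc receptors and signalling adaptors were lower by a median of -0.40, all 5 with a lower mean (53.5% of all genes) and 4 without overlap (32.5% of all genes). Fcgr1, the high-affinity receptor for IgG, measured 5.45 and 6.06 in the wild-type pair, beside 4.90 and 4.80 in the knockout pair. The knockout arrays lay under the brightness limit of 4.94 and below both wild-type arrays, with a difference of -0.91 ± 0.24 (SE, n = 2 per group; limma adjusted p = 0.169). A dimmer Fcgr1 probe set, with a mean under that limit, differed by -0.03 and its genotypes overlapped. Fcgr3, an activating low-affinity receptor, had 7.99 and 8.32 against 7.68 and 7.73, a difference of -0.45 ± 0.15 with an adjusted p of 0.210. The shared signalling adaptors Fcer1g and Tyrobp were bright and differed by -0.40 ± 0.18 and -0.35 ± 0.16, with adjusted p-values of 0.291 and 0.296. Fcgr2b, the inhibitory receptor, gave different answers by probe set. Its brightest set measured 8.41 and 8.46 in the wild-type pair, beside 8.001 and 8.72 in the knockout pair and so overlapped, whereas its other 3 sets differed by -1.12, -0.58 and -0.91, each with both knockout arrays below both wild-type arrays.

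General macrophage genes were lower by a median of -0.45 and the growth factor axis by -0.16. Aif1, a calcium-binding protein of macrophages, measured 5.82 and 6.12 in the wild-type pair, beside 4.95 and 4.88 in the knockout pair. The knockout arrays were close to each other, and their mean of 4.92 lay under the brightness limit of 4.94. Aif1 thus reached the limit only through its wild-type values. The difference was -1.05 ± 0.14 (SE, n = 2 per group), or 2.07-fold, with a limma adjusted p of 0.105. Adgre1, an adhesion receptor widely used to mark mouse macrophages, had 7.86 and 8.24 against 7.45 and 7.75, a difference of -0.45 ± 0.20, and Mpeg1, a pore-forming protein of phagosomes, had 7.47 and 8.08 against 7.21 and 7.56 and overlapped. Csf1 measured 7.98 and 8.09 in the wild-type pair, beside 7.87 and 8.06 in the knockout pair. Its difference of -0.07 had an interval from -0.40 to 0.26, and its genotypes overlapped. Csf1r had 8.01 and 8.17 against 7.68 and 8.02, a difference of -0.24 with overlap. Spi1 was dim, at 5.29 and 5.32 against 5.11 and 5.19, a difference of -0.16.

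**Figure D2:**
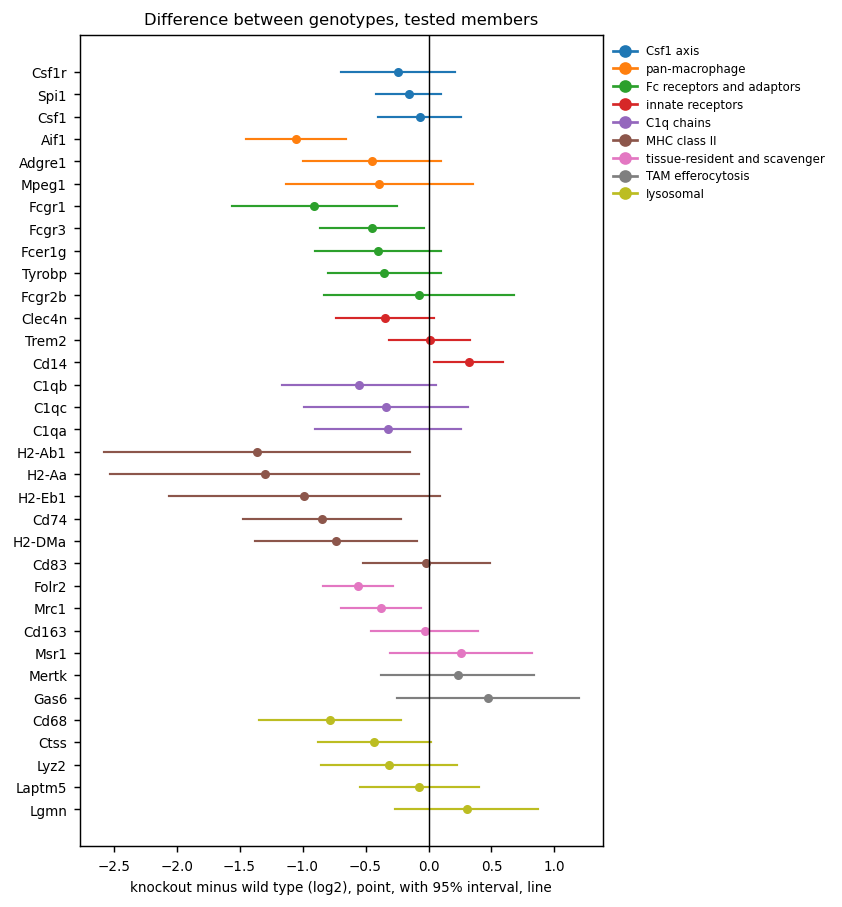
Knockout minus wild-type difference (horizontal axis, log2) of the 34 tested genes, as points with 95% intervals from limma, coloured by role. The lowest points are H2-Ab1 at -1.36, H2-Aa at -1.30 and Aif1 at -1.05, and the highest are Gas6 at 0.47 and Cd14 at 0.32.

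The 3 chains of complement C1q, which starts the classical complement pathway and is made mainly by macrophages, were all lowest in knockout replicate 1 and highest in wild-type replicate 2. Their genes lie side by side, with 0 protein-coding genes between them. C1qb measured 8.79 and 9.04 in the wild-type pair, beside 8.11 and 8.62 in the knockout pair, without overlap, a difference of -0.55 ± 0.22 (SE, n = 2 per group; limma adjusted p = 0.262). C1qa had 9.48 and 9.72 against 9.05 and 9.52, and C1qc 8.51 and 8.79 against 8.04 and 8.58. In these 2 genes knockout replicate 2 lay between the wild-type arrays and only knockout replicate 1 was lower. The median of the 3 chains was -0.61 and -0.09 in knockout replicates 1 and 2.

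Receptors for microbial and lipid ligands included the only member with an unadjusted limma p under 0.05 and a higher mean. Cd14, a coreceptor for bacterial lipopolysaccharide, measured 7.59 and 7.67 in the wild-type pair, beside 7.997 and 7.90 in the knockout pair, higher in both knockout arrays, a difference of 0.32 ± 0.10 (SE, n = 2 per group; limma adjusted p = 0.199). Clec4n, which encodes the fungal sugar receptor dectin-2, had 6.52 and 6.78 against 6.23 and 6.38, a difference of -0.35 ± 0.14. Trem2, a lipid sensor of phagocytes, differed by 0.01 in its brighter probe set, with overlap, and by -0.37 in a set of mean near the brightness limit.

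Genes of tissue-resident macrophages and scavenger receptors differed by a median of -0.20, and their members went different ways. Folr2, a folate receptor that marks resident macrophages, measured 8.97 and 9.09 in the wild-type pair, beside 8.48 and 8.45 in the knockout pair. Both pairs were tight and did not overlap, a difference of -0.56 ± 0.10 (SE, n = 2 per group), or 1.47-fold, with a limma adjusted p of 0.124. Mrc1, the mannose receptor that also takes up collagen fragments, had 9.76 and 9.91 against 9.52 and 9.39, a difference of -0.38 ± 0.11 with an adjusted p of 0.196. Cd163, the scavenger receptor for haemoglobin bound to haptoglobin, had 7.41 and 7.73 against 7.47 and 7.60 and overlapped, with a difference of -0.03 and an interval from -0.45 to 0.39. Msr1, a scavenger receptor for modified lipoproteins, had 6.12 and 6.06 against 6.10 and 6.60, where only knockout replicate 2 was high. Below the brightness limit, Timd4, a receptor for exposed phosphatidylserine, had 4.74 and 4.85 against 4.40 and 4.81, and Marco, a scavenger receptor with a collagen-like stalk, had 4.19 and 4.14 against 4.11 and 4.72.

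Mertk and Gas6, a receptor for apoptotic cells and the protein that bridges it to them, had higher means in the knockout. Gas6 measured 8.64 and 8.70 in the wild-type pair, beside 8.80 and 9.48 in the knockout pair, above both wild-type arrays in each, a difference of 0.47 ± 0.26 (SE, n = 2 per group; limma adjusted p = 0.364). Against the wild-type mean it was higher by 0.13 and 0.81 in knockout replicates 1 and 2, the second having high muscle markers, whose part was not tested. A dimmer Gas6 probe set, also above the brightness limit, differed by 0.09 and its genotypes overlapped. Mertk had 5.76 and 5.84 against 6.31 and 5.75, so only knockout replicate 1 was high, and the difference was 0.23 ± 0.22. Of 12 tested genes among 15 other efferocytosis genes, 10 had a lower and 2 a higher mean, with a median of -0.11 and 0 passing, beside 1 lower and 2 higher at an unadjusted limma p under 0.05 (12.1% and 9.69% of all genes). Pros1, the other ligand of this receptor family, differed by 0.29, the endocytic receptor Lrp1 by 0.88 and the integrin chain Itgb5 by -0.56, none with overlap.

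Lysosomal members were lower by a median of -0.31, with Lgmn as the exception. Cd68, a glycoprotein of the macrophage lysosome membrane, measured 7.78 and 7.91 in the wild-type pair, beside 6.81 and 7.31 in the knockout pair. Both knockout arrays were lower, knockout replicate 1 the more so, and the difference was -0.78 ± 0.20 (SE, n = 2 per group), or 1.72-fold, with a limma adjusted p of 0.168. Ctss, the cathepsin that cleaves the invariant chain, had 9.41 and 9.73 against 9.04 and 9.24, a difference of -0.43 ± 0.16 with an adjusted p of 0.240. Lyz2, lysozyme, had 10.83 and 11.28 against 10.67 and 10.82, so that wild-type replicate 1 and knockout replicate 2 were almost equal. Laptm5, a lysosomal membrane protein of blood cells, had 7.25 and 7.61 against 7.26 and 7.45 and overlapped. Lgmn, the asparaginyl endopeptidase, had 9.03 and 8.98 against 9.05 and 9.56, higher in both knockout arrays but by only 0.05 over the wild-type mean in replicate 1. Lysosomal genes outside the list, of which 20 of 27 were tested, had 9 lower and 11 higher means, with a median of 0.02 and 0 passing, beside 3 lower and 5 higher at an unadjusted limma p under 0.05 (12.1% and 9.69% of all genes).

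Set side by side, the MHC class II group lay lower than the tissue-resident and lysosomal groups in both knockout arrays. Its median deviation from the wild-type mean was -0.78 in replicate 1 and -1.06 in replicate 2 of the knockout. The tissue-resident group had -0.20 and -0.21, and the lysosomal group -0.39 and -0.24. The distance from MHC class II to the tissue-resident group was -0.58 and -0.85 in the knockout arrays and ran from -0.28 to 0.28 in the wild-type arrays. To the lysosomal group it was -0.39 and -0.82, against -0.19 to 0.19. The wild-type ranges are symmetric because deviations are taken from the mean of those same arrays. From the class II chains and Cd74 to the C1q chains the distance was -0.24 and -1.18 in the knockout arrays, against -0.29 to 0.29 in wild type. In knockout replicate 1 it thus lay within the wild-type range. These distances between groups were not tested, because members are not replicates of a condition. The tissue-resident and lysosomal groups differed from each other by 0.19 and 0.03 in the knockout arrays, against -0.09 to 0.09 in wild type.

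**Figure D3:**
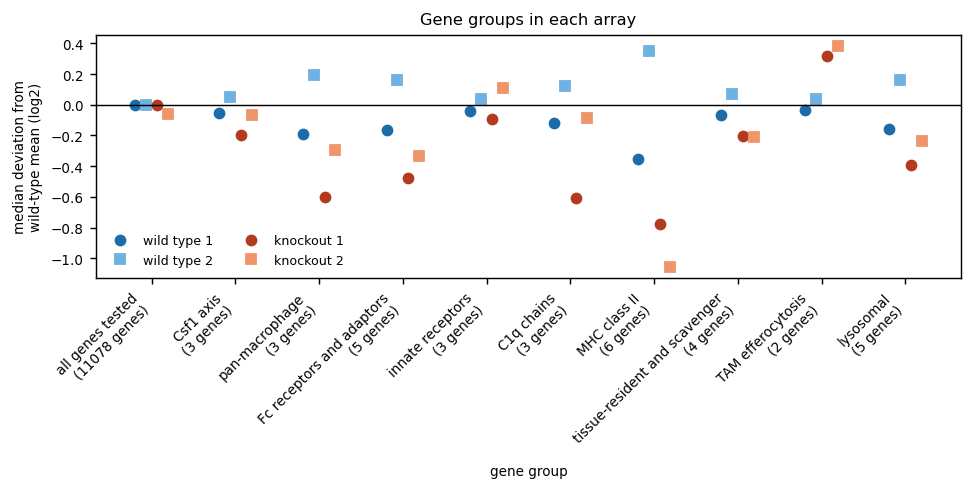
Median deviation from the wild-type mean (vertical axis, log2) of each group of tested genes in each of the 4 arrays, with all 11078 genes at the left. The MHC class II points are the lowest in both knockout arrays, at -0.78 and -1.06, and the C1q points are -0.61 and -0.09.

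The knockout arrays ordered the groups differently. From knockout replicate 1 to knockout replicate 2 the C1q chains differed by a median of 0.51, beside -0.08 over all genes tested. The 4 class II chain genes and Cd74 differed by a median of -0.56. Among the 28 tested members outside MHC class II, 22 were higher in knockout replicate 2 than in replicate 1. So were 1 of the 5 class II chain and Cd74 genes and 4405 of all 11078 genes tested. In wild type both sets had the same order, all 5 class II genes and 25 of the 28 others being higher in replicate 2. Muscle markers, at a summed level of 15.49, were high in knockout replicate 2, and epidermal markers, at 13.61, in knockout replicate 1. Their part in this order was not tested.

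**Figure D4:**
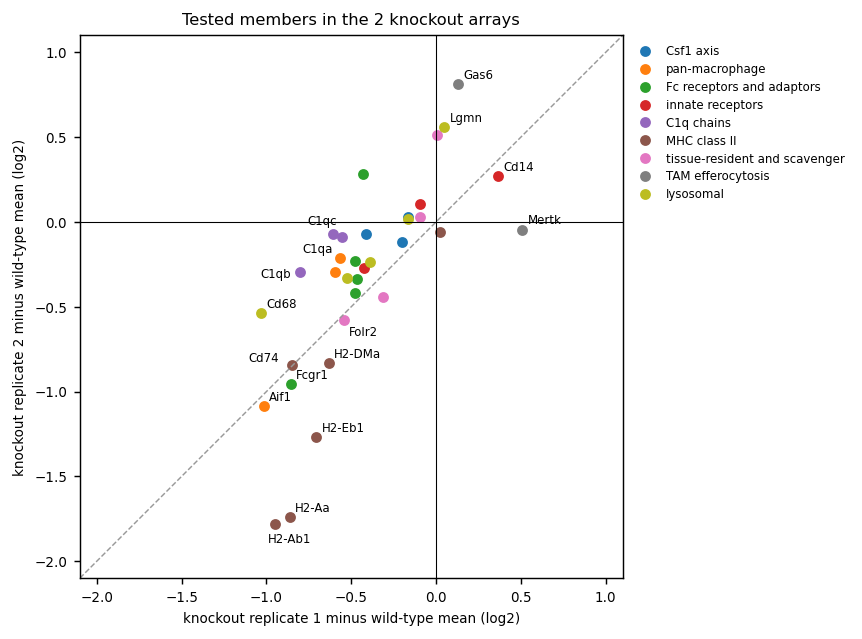
Deviation of each tested gene from the wild-type mean in knockout replicate 1 (horizontal axis, log2) and in knockout replicate 2 (vertical axis, log2), coloured by role, with the dashed line where both are equal. H2-Aa, H2-Ab1 and H2-Eb1 lie below the line, the C1q chains and Cd68 above it, and Cd74, Folr2 and Aif1 near it.

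Leaving out a knockout array changed which members passed. Without knockout replicate 1 the limma test, which then takes the spread from the wild-type pair alone, called 6 members lower (17.6%, where 24.6% of all genes were called lower) and 3 higher (8.82%, where 13.1% were). The 6 were Aif1, Cd68, Folr2, H2-Aa, H2-Ab1 and Mrc1, and the 3 were Gas6, Lgmn and Msr1. Without knockout replicate 2 it called 4 lower (11.8%, background 4.99%), namely Aif1, C1qb, Cd68 and Folr2, and Mertk higher (background 6.73%). Aif1, Cd68 and Folr2 were called lower in both, 8.82% of the 34 members, where 4.4% of all genes were, and 0 members were called higher in both, where 3.78% of all genes were. The fits share the wild-type arrays, through which Aif1 reached the brightness limit. Their differences without knockout replicates 1 and 2 were -1.09 and -1.02 for Aif1, -0.54 and -1.03 for Cd68 and -0.58 and -0.54 for Folr2. Without wild-type replicate 2, the array with the highest class II values, the 5 class II chain and Cd74 genes still had a lower mean (0 passed), with H2-Aa at -0.89, H2-Ab1 at -0.94, H2-Eb1 at -0.54, H2-DMa at -0.45 and Cd74 at -0.56.

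Macrophage genes outside the members differed by small amounts. Of 35 listed, 24 were tested, 18 with a lower and 6 with a higher mean, with a median of -0.12 and 0 passing. At an unadjusted limma p under 0.05 there were 3 lower and 2 higher, near the shares of all genes (12.1% and 9.69%). Ms4a7 measured 7.38 and 7.73 in the wild-type pair, beside 6.71 and 6.78 in the knockout pair, a difference of -0.81 ± 0.15 (SE, n = 2 per group; limma adjusted p = 0.131). Ms4a6c, of the same family of membrane proteins, differed by -0.50 ± 0.10 (adjusted p = 0.139). Lyve1, a hyaluronan receptor of some resident macrophages and of lymphatic vessels, was higher in both knockout arrays, by 0.41 ± 0.09, as was the transcription factor gene Maf, by 0.36 ± 0.09. Of the monocyte markers 3 of 4 tested had a lower mean, with a median of -0.28. The chemokine receptor gene Ccr2 had 5.71 and 5.86 against 5.42 and 5.43, and F13a1 differed by -0.23, both without overlap. S100a4 differed by -0.34 with overlap. Plac8 went the other way with the widest difference, 0.47, at 8.48 and 8.50 against 8.49 and 9.43, so only knockout replicate 2 was high.

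Among other cells that make MHC class II, B cells left little signal on the arrays. Of 7 B cell markers on the array 5 lay below the brightness limit, and their summed level was 7.47 and 7.49 in the wild-type pair, beside 7.36 and 7.53 in the knockout pair. Of 4 lymph node stroma markers 1 lay below it, and the sum was 6.95 and 6.91 against 6.80 and 6.91. The B cell sums overlapped between genotypes, and the lymph node sum was lowest in knockout replicate 1. Of 9 dendritic cell markers 7 were tested, 5 with a lower mean, all 5 without overlap (32.5% of all genes), and 2 with a higher mean, with a median of -0.32. None passed, beside 3 lower (12.1% of all genes) and 1 higher (9.69%) at an unadjusted limma p under 0.05. Their summed level was 9.70 and 9.97 in the wild-type pair, beside 9.80 and 9.64 in the knockout pair. Cd209a, a lectin of monocyte-derived dendritic cells, had 5.39 and 5.39 against 5.01 and 4.99, and Zbtb46, a factor of conventional dendritic cells, 6.17 and 6.08 against 5.70 and 5.87. Irf8, a factor of dendritic cells and macrophages, differed by -1.09, and Irf4, a factor of dendritic and B cells, went the other way with the widest difference of the list, 1.88. T cell markers, 5 tested, had a median of -0.04, and neutrophil markers, 5 tested, 0.01, with S100a8 at 8.32 and 7.75 in the wild-type pair, beside 9.09 and 6.38 in the knockout pair. The part of dendritic cells in the class II values was not tested.

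The surrounding tissue differed between arrays in its own way. Luminal epithelial markers, 7 tested, all had a higher mean in the knockout, with a median of 0.64, and were lowest in wild-type replicate 2, where their summed level was 9.53 against 10.65, 10.98 and 10.81 in the other arrays. Wild-type replicate 2 was also the array with the highest MHC class II values. Fibroblast markers, 8 tested, had a median of -0.07, and adipocyte markers, 5 tested, of -0.19, with leptin, Lep, at -5.00. The part of these differences in tissue make-up in the macrophage values was not tested.

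**Figure D5:**
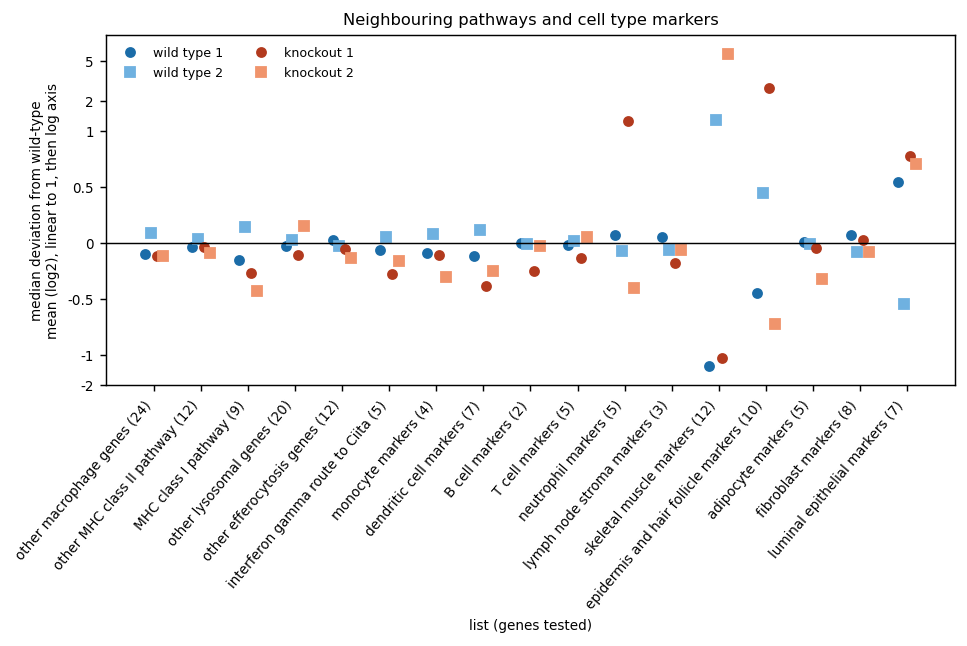
Median deviation from the wild-type mean (vertical axis, log2, linear up to 1 and logarithmic beyond) of pathway and cell type marker lists in the 4 arrays, with the number of tested genes in brackets. The highest points are muscle in replicate 2 of the knockout, at 5.84, and epidermis in replicate 1, at 2.68, while B cell, T cell and lymph node markers lie between -0.25 and 0.06.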

How the data were processed

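Expression was measured in 4 intact mammary glands, 2 per genotype, with 1 Affymetrix 3-prime array each. Per the submitters' processing notes the authors used RMA and affy to turn probe signals into 1 value per probe set, versions not given in the sources used here. RMA corrects background and equalises the arrays' distributions. The deposited values are log2 expression values, a scale read from the values (array medians 4.92 to 4.98). Precision is limited by having 4 arrays.

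Genes were named from the array annotation, with 28898 of 45141 probe sets assigned to a single gene, and each gene was read from its brightest one. Genes whose mean reached 4.94 were tested with limma 3.58.1 in R 4.3.3 (lmFit and eBayes, no covariate, Benjamini-Hochberg adjustment over 11078 genes, threshold 0.05). SE and 95% intervals are limma's moderated ones. The procedure was checked on simulated data. The labels call the samples biological replicates. They do not say whether same-numbered arrays are paired, and the main test used no pairing. Deviations of same-numbered arrays correlated at -0.09 over all genes tested. With 2 arrays per genotype this value cannot decide whether they are paired.

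The members and lists were chosen with earlier results of these data known, so lists are described by counts and medians without a test. All members are named, with up to 4 genes of smallest p per other list and Mmp14. Lists covered other macrophage, class II, class I, lysosomal, efferocytosis and interferon gamma genes, and markers of monocytes, dendritic, B and T cells, neutrophils, lymph node stroma, muscle, epidermis, adipocytes, fibroblasts and luminal epithelium. Alternatives were other brightness filters, probe set choices, scalings, variance priors, array weights, a replicate block and each array left out. Promoters were searched with Python 3.11.15.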

Additional observations from a re-analysis of the deposited data

How the results depend on the processing

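With 2 arrays per genotype, an array left out decided the calls. Leaving out each array in turn gave 0 to 1455 genes called higher and 0 to 2725 called lower, and 0 to 3 members higher and 0 to 6 lower, the nonzero counts arising only without a knockout array. Under the other alternatives 0 genes were called. With the replicate block 0 members were called, the smallest adjusted p among them was 0.239, and the 28 lower means were the same in number. Group medians over the arrays left out in turn ran from -0.057 to -0.0044 for all genes, -0.49 to -0.20 for all members, -0.20 to -0.069 for the Csf1 axis, -0.70 to -0.25 for general macrophage genes, -0.61 to -0.21 for Fc receptors, -0.32 to -0.086 for the tissue-resident and -0.54 to -0.086 for the lysosomal group, and from -1.28 to -0.55 for MHC class II. Settings that tested other genes or probe sets moved some medians. With the 75th percentile filter they were -0.070 for all genes, 0.32 for innate receptors, -0.38 for tissue-resident genes and 0.47 for Mertk and Gas6, and all 3 class II chain and Cd74 genes left were lower. With a gene's probe sets averaged they were -0.18 for innate receptors and 0.26 for Mertk and Gas6. Without probe sets shared between transcripts they were 0.16 for innate receptors and -0.032 for tissue-resident genes, 16 of 22 members had a lower mean, as had both class II genes left (2 of 2). With no filter the tissue-resident median was -0.11. Small differences changed sign. Trem2 was at -0.015 after cyclic loess, -0.018 after median centring, -0.011 after quantile normalisation and -0.18 with its probe sets averaged, and Cd163 at 0.018 after quantile normalisation. Over the arrays left out, Csf1 ran from -0.17 to 0.028, Fcgr2b from -0.43 to 0.28, Trem2 from -0.092 to 0.11, Cd83 from -0.23 to 0.20, Cd163 from -0.19 to 0.13, Mertk from -0.044 to 0.51 and Laptm5 from -0.25 to 0.11. The cause of these sign changes was not tested. Values near the brightness limit, as in Aif1, Fcgr1 and H2-DMa, limit what these arrays resolve.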

Other observations

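Lysosomal genes outside the members went both ways, with 9 lower and 11 higher means among 20 tested. Mitf, a transcription factor that drives lysosomal genes, measured 6.81 and 6.91 in the wild-type pair, beside 8.24 and 8.53 in the knockout pair (1.53 ± 0.14, SE, n = 2 per group; limma adjusted p = 0.101). Gpnmb, a glycoprotein of lipid-laden phagocytes, had 6.23 and 6.20 against 7.51 and 8.41 (1.75 ± 0.33), and Ctsk, a collagen-degrading cathepsin, 7.88 and 7.52 against 8.79 and 9.18 (1.29 ± 0.21). Npc1, which moves cholesterol out of the lysosome, differed by 0.74 ± 0.11. These 4 have the smallest p of the list. The 3 lower genes at an unadjusted limma p under 0.05, named after their values were seen, were the cathepsins Ctsd (-0.47 ± 0.09), Ctsh (-0.48 ± 0.13) and Ctsb (-0.33 ± 0.09). None passed the threshold, and none of these genes is specific to macrophages.

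The interferon regulatory factor genes named among the dendritic cell markers went in opposite directions, in glands not separated into cell types. Irf8 measured 6.44 and 6.71 in the wild-type pair, beside 5.24 and 5.72 in the knockout pair (-1.09 ± 0.22, SE, n = 2 per group; limma adjusted p = 0.138). Irf4 had 5.04 and 5.37 against 7.90 and 6.28 (1.88 ± 0.59; adjusted p = 0.203). Irf4 was highest in knockout replicate 1, where neutrophil markers had a median deviation of 1.28 and epidermal markers of 2.68. In knockout replicate 2, where Irf4 also lay above both wild-type arrays, these medians were -0.40 and -0.72. The part of these tissue differences in the Irf4 values was not tested.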
